A study of Mus musculus with 4 samples.

Results

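Polycomb and DNA methylation regulators were followed in single cells of the CD8+ T cell response to lymphocytic choriomeningitis virus (LCMV). The 8 genes were found by their symbols among the 27998 genes listed, of which 15349 were detected in at least 2 cells, and all 8 were detected. They are Ezh2 (chr6:47530139-47595341, - strand), Eed (chr7:89954654-89980983, -) and Suz12 (chr11:79993106-80034123, +), the core of Polycomb repressive complex 2 (PRC2), Suv39h1 (chrX:8061171-8074760, -), a histone H3 lysine 9 methyltransferase, Dnmt3a (chr12:3806007-3914443, +), a de novo DNA methyltransferase, Tet2 (chr3:133463679-133545139, -) and Tet3 (chr6:83362373-83459084, -), which oxidize 5-methylcytosine, and Kdm6b (chr11:69398508-69413675, -), a histone H3 lysine 27 demethylase. All are protein coding, and positions are in GRCm38. Another 53 regulators of the same pathways were described beside them.

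PRC2 places the H3K27me3 mark, which keeps genes silent, and Kdm6b removes it. Dnmt3a adds methyl groups to unmethylated CpG sites, and the TET enzymes start their removal. Suv39h1 places H3K9me3, the mark of constitutive heterochromatin. In CD8+ T cells these enzymes are known for setting which memory genes are silenced as cells become terminal effectors, and PRC2 is known for rising in dividing lymphocytes.

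Cells came from 2 mixed bone marrow chimeras on the C57BL/6 background. Wild-type marrow (CD45.1, WT) and Bcl3-/- marrow (CD45.2, KO) had been given together to irradiated Rag1-/- hosts, which have no mature T or B cells of their own, and the animals were infected with LCMV Armstrong. On day 8, spleen CD8+ T cells that bound the H-2Db-GP33 tetramer were sorted by CD45 allele into 1 library per genotype and chimera. The libraries are called WT1 and KO1 (chimera 1) and WT2 and KO2 (chimera 2), so that n = 2 per genotype. WT and KO cells of a chimera shared host, infection and day, but genotype cannot be told apart from the CD45 allele and the marrow donor, and the deletion was carried by all cells of the KO marrow, not only by T cells.

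A UMI (unique molecular identifier) marks 1 captured transcript, read at its 3′ end. Barcodes counted as cells when they held 500 genes or more and no more than 10% of their UMIs came from mitochondrial genes. This gave 4941 cells in WT1, 5366 in KO1, 8092 in WT2 and 6494 in KO2, with medians of 3571, 3620.5, 2019 and 2948 UMIs per cell and 20192770, 21813076, 19217181 and 21525963 UMIs in all. WT2 was the shallowest library per cell. Between 37 and 63 cell barcodes were shared by each pair of libraries, against 36.0 to 71.3 for random draws from the barcodes of the kit. Levels are given in CPM, the UMIs of a gene per 1000000 UMIs of the cells summed. One tag is counted per molecule, so levels are compared between cells for each gene, and not between genes.

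The labels were checked first. Cd8a was at 521 CPM in WT1, 464 in KO1, 481 in WT2 and 485 in KO2, and Cd4 stayed between 1.72 and 2.67 CPM. Bcl3 was at 33.2 CPM in WT1, 27.6 in KO1, 108 in WT2 and 86.6 in KO2. Bcl3 transcript differed more between the chimeras than between the labels (log2 fold change of KO over WT -0.33, SE 0.58), and the KO-labelled library lay below the WT library of each animal. The deleted part of Bcl3 is not given in the sources used here, and 3′ counts outside a deletion do not check it, so WT and KO denote the labels throughout.

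T cell states were taken from clusters made in each library, with the 61 regulators kept out of the genes used for clustering. Cycling clusters (led by genes such as Mcm5, Ccnb2 and Cdc20) held 17.2% of WT1, 9.78% of KO1, 12.9% of WT2 and 10.8% of KO2. MPEC-gene clusters were led by Tcf7, Ccr7 and Id3, markers of memory precursors (MPEC), but also by naive T cell genes such as Dapl1 and Actn1. Among their 10 leading genes, markers of naive T cells, of which Tcf7 and Ccr7 are on both lists, were as many as or more than those of memory precursors (4 and 4 in WT1, 5 and 4 in WT2, 4 and 3 in KO2), so that the 2 kinds of cell cannot be told apart there and the name stands for the genes only. They held 6.395% of WT1, 5.46% of WT2 and 2.43% of KO2, and KO1 had no such cluster at this resolution. Terminal effector-like clusters were led by Gzma, Zeb2 and S1pr5, and interferon-like clusters by Ifit1 and Isg15. The remaining T cells, between 53.3% and 60.0% of a library, were in clusters that took no name from the markers and are called unnamed. Because the states come from the same cells, differences between them are descriptions without a test.

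Ezh2, the catalytic subunit of PRC2, was highest in cycling cells among the T cell states. Its level in cycling clusters was 98.4 CPM in WT1, 105 in KO1, 140 in WT2 and 127 in KO2. In terminal effector-like clusters it was 25.2, 30.2, 35.4 and 35.2 CPM in the same order, so every cycling value lay above every terminal effector-like value. Relative to all other T cells of the library, the mean log2 ratio in cycling clusters was 1.74 ± 0.18 (SD, n = 4 libraries), which is 3.35-fold. Of 8179 genes with a mean of at least 5 CPM in T cells, 4.5% were at least 2-fold above the other T cells in cycling clusters by this measure. In the 3 libraries with MPEC-gene clusters these came next, at 59.0 CPM in WT1, 55.6 in WT2 and 48.6 in KO2. These lay above the levels in the same libraries' terminal effector-like (25.2 to 35.4 CPM), interferon-like (32.5 to 38.6 CPM) and unnamed clusters (33.9 to 36.1 CPM), and the last 3 groups overlapped. With integrated clusters this order did not hold in KO1, where Ezh2 was at 28.3 CPM in MPEC-gene, 31.9 in terminal effector-like and 29.9 in unnamed cells.

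Counted per cell, Ezh2 was again highest in cycling cells, but in WT1 the gap to MPEC-gene cells was small. Cells were thinned to 1000 UMIs, which kept 850, 525, 1035 and 702 of the 852, 525, 1045 and 702 cycling cells of WT1, KO1, WT2 and KO2. Of these, 7.18% in WT1 held an Ezh2 UMI (exact Clopper-Pearson 95% interval 5.53% to 9.12%), and the share was 7.43% in KO1, 12.3% in WT2 and 10.3% in KO2. In MPEC-gene cells it was 6.33% in WT1 (3.91% to 9.61%), 6.81% in WT2 (4.61% to 9.63%) and 7.64% in KO2 (4.01% to 12.97%), and in WT1 and KO2 these intervals overlapped those of cycling cells. In terminal effector-like cells it was 1.52%, 2.81%, 3.66% and 3.66%. B cell-like cells, which were not the sorted cells, held an Ezh2 UMI in 1.79% to 2.36% of thinned cells, from 106 to 134 cells per library. These shares have wide intervals (0.229% to 6.65% in WT1) and are not used as a background level. Unthinned shares in cycling cells were 34.6%, 38.9%, 31.0% and 36.8%, at median depths of 4997, 5602, 2793 and 4150.5 UMIs. The median depth of B cell-like cells was between 2025.5 and 2901 UMIs, and the intervals cover counting error only.

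The partners of Ezh2 were also higher in cycling cells, by less. Suz12, which holds PRC2 together, was at 29.1 CPM (WT1), 30.04 (KO1), 36.4 (WT2) and 50.6 (KO2) in cycling clusters. KO2 stood above the other 3 libraries. Suz12 in terminal effector-like clusters lay between 13.5 and 22.0 CPM, below every cycling value, and its mean log2 ratio of cycling to other T cells was 0.97 ± 0.24 (SD, n = 4). Eed, which binds H3K27me3 and stimulates the enzyme, was at 70.4, 69.6, 95.4 and 77.9 CPM in cycling clusters and at 49.1, 41.3, 61.5 and 55.9 CPM in terminal effector-like clusters, with a mean log2 ratio of cycling to other T cells of 0.58 ± 0.11. Eed was higher in chimera 2 than in chimera 1 in all cells, in both genotypes.

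Suv39h1 followed Ezh2. Its level in cycling clusters was 26.3 CPM in WT1, 24.5 in KO1, 41.5 in WT2 and 37.0 in KO2. In all other T cells it was 9.09, 7.43, 10.2 and 7.62 CPM, so the values did not overlap. The mean log2 ratio was 1.89 ± 0.33 (SD, n = 4), or 3.71-fold. The lowest cycling value was in the KO library of chimera 1, and both libraries of chimera 2 were higher than both of chimera 1. Of the 8 members, 4 were above the other T cells in cycling clusters in 4 of 4 libraries, beside 32.9% of all genes over 5 CPM. These were Ezh2, Suz12, Eed and Suv39h1, which are grouped here by these values. Another 2, Tet2 and Tet3, were below in 4 of 4 libraries (29% of all genes). In terminal effector-like clusters 4 of the 8 members, the same 4, were below the other T cells in 4 of 4 libraries (27.3% of all genes).

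The other T cells include the cycling cells, where these genes were highest, so the direction in terminal effector-like clusters depends on that reference. Against unnamed T cells, Suv39h1 in terminal effector-like clusters was lower in WT1 (7.01 against 9.45 CPM) and higher in KO1 (8.78 against 6.85), WT2 (13.02 against 9.30) and KO2 (7.75 against 6.90). Suz12 was higher in WT1 and KO2 and lower in the other libraries, and Eed was higher in WT2. Ezh2 was lower in 4 of 4 libraries clustered alone, though by little in KO1 (30.2 against 30.3 CPM) and WT2 (35.4 against 35.9 CPM). This did not hold with integrated clusters, where the mean Ezh2 level was 34.4 CPM in terminal effector-like and 33.4 CPM in unnamed cells. The highest library values there were 43.7 and 35.6 CPM. With integrated clusters Suz12 was above the other T cells in 2 of 4 libraries and Eed in 1.

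**Figure D1:**
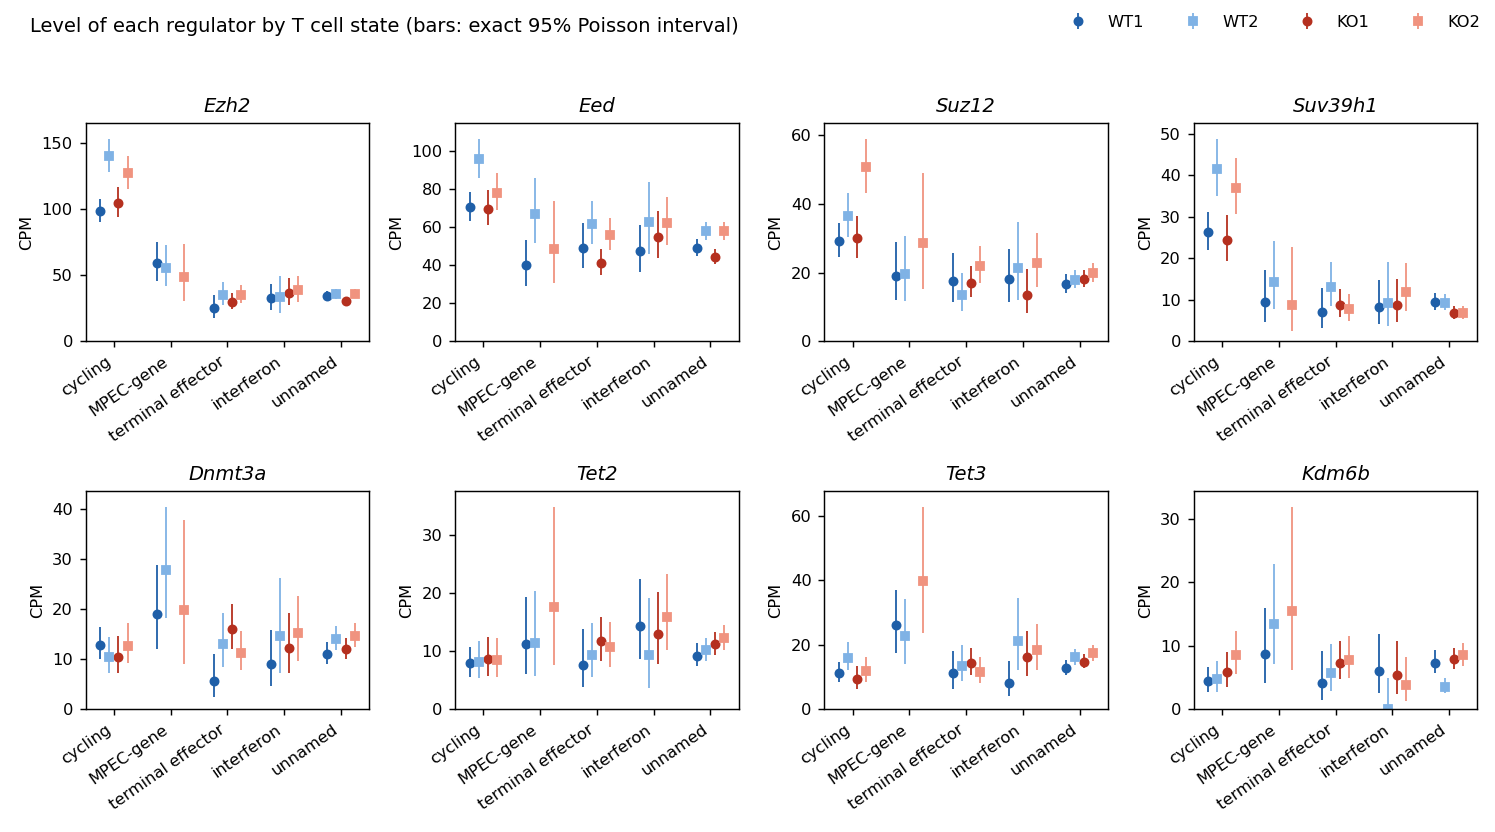
Level (CPM, linear axis from 0) of each regulator by T cell state in the libraries WT1, WT2, KO1 and KO2; bars are exact 95% Poisson intervals of the UMI counts. Ezh2 and Suv39h1 stand apart in cycling clusters in all 4 libraries (Ezh2 98.4 to 140 CPM, Suv39h1 24.5 to 41.5 CPM), whereas Tet3 is highest in MPEC-gene clusters (22.7 to 39.8 CPM), for which KO1 has no point.

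Cells with mitosis genes and cells with replication genes were also compared, and here the order depended on the clustering. With the 4 libraries integrated, the Ezh2 log2 ratio to the other T cells in G2M-like clusters was 1.84 (WT1), 2.28 (KO1), 2.15 (WT2) and 2.31 (KO2). In S-like clusters it was 0.89, 0.97, 1.04 and 0.79, below every G2M-like value. Suv39h1 lay between 2.04 and 2.79 in G2M-like and between 0.20 and 0.94 in S-like clusters, again without overlap. Suz12 showed no overlap either (1.29 to 1.47 against 0.02 to 1.18), while Eed overlapped (0.50 to 0.88 against 0.20 to 0.69). An integrated cluster of 1744 cells also had mitosis genes such as Ccnb2, Cenpa and Cdkn3 among its leading genes. It took no name and was counted with the other T cells.

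Clustered alone, WT2 had no S-like cluster, and the order did not hold in each of the other 3 libraries. The Ezh2 ratio in G2M-like against S-like clusters was 1.16 against 1.12 in WT1, 1.42 against 1.60 in KO1 and 1.80 against 0.95 in KO2, so KO1 went the other way. For Suv39h1 it was 1.17 against 1.19 in WT1, 1.61 against 1.27 in KO1 and 2.30 against 1.00 in KO2. Some G2M-like clusters also held most of the S phase markers. The hemoglobin genes Hbb-bs and Hba-a1 were among the leading genes of a G2M-like cluster in WT1 (130 cells), WT2 (464 cells) and KO2 (183 cells). They were not among those of the G2M-like clusters of KO1. These G2M-like clusters may thus hold RNA of erythroid cells, and its part in the G2M-like ratios was not tested.

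Genes of other cells were also present in some cycling clusters. Hbb-bs, a hemoglobin gene, was at 74.1 CPM in WT1, 0.31 in KO1, 47.1 in WT2 and 345 in KO2 cycling clusters. The basophil gene Prss34 was at 137 CPM in KO1 and 3.95 in WT2, with 0 UMIs in WT1 and KO2. Of the 4 erythroid markers, all were detected in cycling clusters, with a summed level of 157 CPM in WT1, 0.61 in KO1, 85.0 in WT2 and 650 in KO2. Ezh2 in KO1, where erythroid markers were near 0, was 105 CPM against 30.8 CPM in its other T cells. The KO1 cycling clusters were also those with basophil RNA (Prss34, and Mcpt8 at 121 CPM), and the part of these cells in the Ezh2 difference was not tested. Cd8a was between 474 and 534 CPM in cycling clusters of the 4 libraries.

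The DNA-modifying enzymes and Kdm6b showed no common rise in cycling clusters. Tet2 was at 7.89 CPM in WT1, 8.58 in KO1, 8.18 in WT2 and 8.49 in KO2 there, against 9.75, 11.45, 10.1 and 12.5 CPM in the other T cells. It was lower in cycling clusters in 4 of 4 libraries, with a mean log2 ratio of -0.38 ± 0.12. Tet3 was also lower in 4 of 4 libraries, by -0.35 ± 0.27, though in WT2 the levels were close (16.1 against 16.6 CPM). Dnmt3a gave -0.18 ± 0.31 and Kdm6b -0.18 ± 0.37, within the spread of the libraries. With integrated clusters Tet3 gave -0.21 ± 0.38 and was above 0 in WT1 (0.02) and WT2 (0.16), while with cells thinned to 1000 UMIs it gave -0.75 and Kdm6b -0.97. A share of 29% of all genes lay below the other T cells in 4 of 4 libraries.

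Among the T cell states of libraries clustered alone, Tet3, Dnmt3a and Kdm6b were highest in MPEC-gene clusters, an order that did not hold in each library with integrated clusters. Tet3 was at 26.0 CPM in WT1, 22.7 in WT2 and 39.8 in KO2, against no more than 21.3 CPM in any other T cell state of these libraries. The mean log2 ratio to the other T cells was 1.02 ± 0.44 (SD, n = 3 libraries, 70 UMIs in all). Dnmt3a was at 19.1 CPM in WT1, 27.8 in WT2 and 19.9 in KO2, with a mean log2 ratio of 0.84 ± 0.25 from 58 UMIs. Its largest value in the other T cell states of the same libraries was 15.2 CPM, so these values did not overlap, but in B cell-like cells it was at 19.6 CPM in WT1 and 29.8 in WT2. Kdm6b was at 8.68, 13.4 and 15.5 CPM, which rests on 30 UMIs and gave 1.14 ± 0.63, and Tet2 gave 0.45 ± 0.21 from 32 UMIs.

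Of the 8 members, 4 were above the other T cells in 3 of 3 libraries, beside 26.7% of genes over 5 CPM. They were Tet3, Dnmt3a, Kdm6b and Tet2, which are grouped here by these values, and 1 member, Suv39h1, was below in 3 of 3. For a mean ratio of at least 2-fold, reached by Tet3 and Kdm6b, the share over all genes was 1.99%. With integrated clusters, which placed MPEC-gene cells in all 4 libraries, the mean log2 ratio was 0.71 ± 0.49 for Tet3 and 1.10 ± 0.63 for Kdm6b, above 0 in 4 of 4 libraries, though Tet3 in WT2 was at 0.015. There Tet3 in WT2 was at 16.0 CPM in MPEC-gene cells against 17.8 in cycling and 17.4 in interferon-like cells, Dnmt3a in KO1 at 10.1 against 13.1 in terminal effector-like cells, and Kdm6b in WT1 at 8.17 against 8.85 in terminal effector-like cells. It was 0.59 ± 0.62 for Dnmt3a, above 0 in 3 of 4 libraries and as low as -0.26 in the lowest one, and 0.24 ± 0.65 for Tet2, with -0.69 in KO2. In MPEC-gene clusters Ezh2 (0.03 ± 0.15) and Suz12 (0.01 ± 0.17) differed from the other T cells by less than the spread of libraries. Suv39h1 gave -0.33 ± 0.17 and Eed -0.24 ± 0.24. The mean Ezh2 log2 ratio was 0.71 with thinned cells and -0.23 with integrated clusters. The other T cells include the cycling cells, so these values depend on that reference. Against unnamed T cells, Ezh2 was higher in WT1 (59.0 against 33.9 CPM), WT2 (55.6 against 35.9) and KO2 (48.6 against 36.1). Suz12 was also higher in each, and Eed only in WT2. Suv39h1 was higher in WT2 (14.4 against 9.30) and KO2 (8.84 against 6.90), from 14 and 4 UMIs, and close in WT1.

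In interferon-like clusters Tet2 was above the other T cells in 4 of 4 libraries, with a mean log2 ratio of 0.39 ± 0.30 (12% of all genes lay above in 4 of 4). Ezh2 was below in 4 of 4 libraries (-0.55 ± 0.25; 20.7% of all genes lay below), and Suv39h1 too (-0.42 ± 0.36), with the cycling cells in the reference. Against unnamed T cells, interferon-like Ezh2 was slightly lower in WT1 (32.5 against 33.9 CPM) and WT2 (33.3 against 35.9) and higher in KO1 (36.7 against 30.3) and KO2 (38.6 against 36.1). The other members fell on both sides of 0 among the 4 libraries.

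The levels of some regulators went together across the 19 sums of library and state. Pearson's r of log2(CPM + 1) was 0.94 for Ezh2 and Suv39h1, 0.83 for Ezh2 and Suz12, 0.83 for Eed and Suv39h1 and 0.73 for Ezh2 and Eed. For Dnmt3a and Tet3 it was 0.73 and for Tet2 and Tet3 0.50, while Ezh2 and Tet2 gave -0.39. Points of a library share its depth and animal, so these values only describe the pattern. The genes with the pattern most like Ezh2, among 4883 genes with a mean of at least 20 CPM, were Nucks1 (r = 0.97), Ccdc34 (0.96) and H2afx (0.96, histone H2A.X). Those most like Suv39h1 were Fen1 (0.96, flap endonuclease of DNA replication), Anp32e (0.95) and Bub3 (0.95, spindle checkpoint).

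For Suz12 they were U2af2 (0.91), Hmgb1 (0.90) and Tcf19 (0.88), and for Eed Sept7 (0.90), Zcchc17 (0.89) and Hspa14 (0.89). For Tet3 they were Stim2 (0.90), Sesn3 (0.87) and Elovl5 (0.87), and for Dnmt3a Slc6a6 (0.83), Csnk1a1 (0.80) and Igf2bp3 (0.80). Tet2 was most like Grap (0.85), Mink1 (0.81) and Top2b (0.81), and Kdm6b most like Rapgef1 (0.94), Wdyhv1 (0.85) and Smim8 (0.85). Kdm6b, Tet2 and Dnmt3a had few UMIs per sum, and their closest genes are the least certain.

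Other regulators of the same pathways also lay on both sides of 0. Of the 61 regulators, 52 had at least 5 CPM in T cells, and 21 of these were above the other T cells in cycling clusters in 4 of 4 libraries and 17 were below, beside 32.9% and 29% of all genes. Their median log2 ratio was 0.15, beside 0.00 over all genes. Dnmt1, the maintenance DNA methyltransferase, had a ratio of 1.47 ± 0.22 (SD, n = 4), Rbbp7, a histone chaperone of PRC2, 1.12 ± 0.16, and Cbx3, a heterochromatin protein, 1.10 ± 0.12. At the other end were Phf1 (-0.98 ± 0.10), a Polycomb-like PRC2 partner, Ezh1 (-0.53 ± 0.08), the second PRC2 enzyme, and Cbx7 (-0.52 ± 0.35), a PRC1 reader of H3K27me3. Ezh1 and Ezh2, which take the same place in PRC2, thus lay on opposite sides of 0 in every library.

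By list, 6 of 10 PRC2 genes and 6 of 9 H3K9 genes were above in cycling clusters in 4 of 4 libraries (32.9% of all genes), and so were 5 of 17 PRC1 genes, 3 of 8 DNA methylation genes and 1 of 3 DNA demethylation genes. None of the 3 H2A deubiquitinase and 2 H3K27 demethylase genes was. In MPEC-gene clusters 14 of 17 PRC1 genes were above the other T cells in 3 of 3 libraries (26.7% of all genes), with a median log2 ratio of 0.41, beside 0.02 over all genes. Uhrf1 and Cbx5 were named after their values were seen. Uhrf1, which guides Dnmt1 to replicated DNA, had the largest cycling ratio of the 52 (3.13 ± 0.18), and Cbx5, which binds H3K9me3, had 1.83 ± 0.17. Both were under 20 CPM in T cells.

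**Figure D2:**
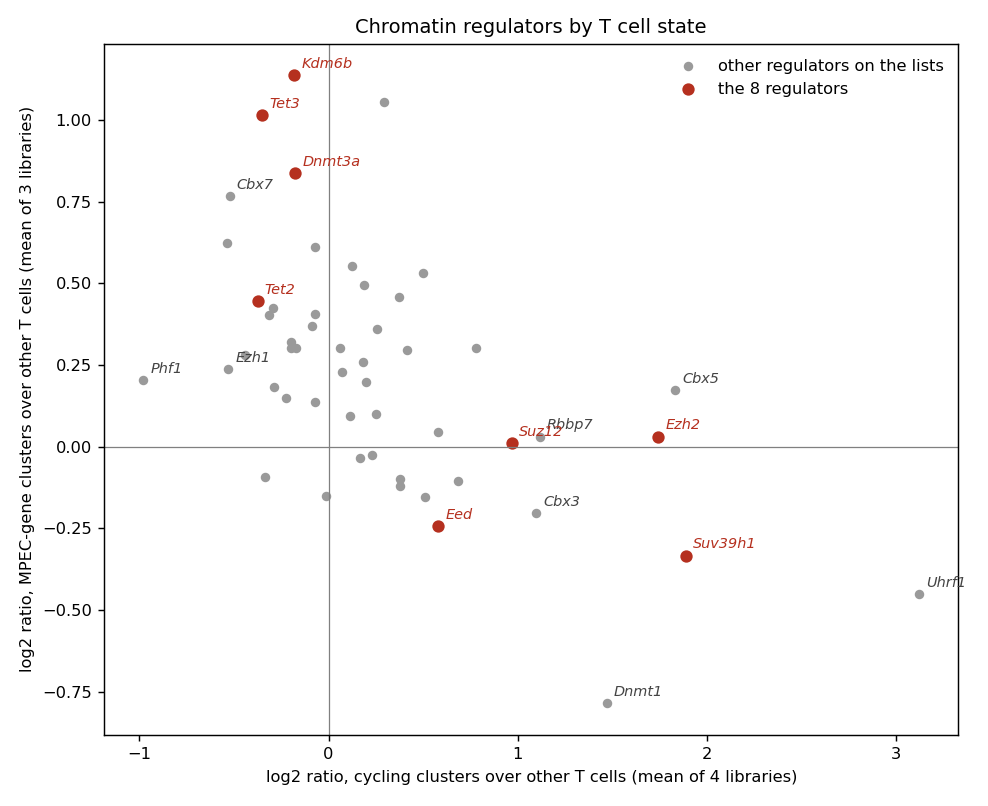
Mean log2 ratio to the other T cells in cycling clusters (x axis, 4 libraries) and in MPEC-gene clusters (y axis, 3 libraries) for the 52 listed regulators with at least 5 CPM; the 8 regulators are in red. Ezh2 (1.74, 0.03) and Suv39h1 (1.89, -0.33) lie at the right, and Kdm6b (-0.18, 1.14), Tet3 (-0.35, 1.02) and Dnmt3a (-0.18, 0.84) at the upper left. The reference of the y axis includes the cycling cells, which lowers the y values of genes high in those cells. Against unnamed T cells of the same libraries, Ezh2 was higher in MPEC-gene clusters (48.6 to 59.0 against 33.9 to 36.1 CPM).

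Because Ezh2, Suz12 and Suv39h1 were high in cycling cells, 250 bases before each RefSeq transcript start (GRCm38.p6) were searched on both strands for the E2F letters TTTCCCGC, TTTGGCGC, TTTCGCGC and TTTGCCGC. Among the 7 members in the RefSeq table a match was found for Suz12 and for Suv39h1 (before 1 of its 2 starts). Of the 51 listed regulators with a window 6 had one, the others being Cbx3, Dnmt1, Phf19 and Uhrf1, and so did 2.16% of all genes. None was found in the windows of Ezh2, Eed, Dnmt3a, Tet2 and Tet3. The letters TTTGAA, read on both strands as a cell cycle homology region, were found for Eed and Suz12 and in 18.3% of all genes, and a kappaB motif in no member and in 4.46% of genes. Of the matches, 4 are shown, each in 30 bases of the gene's own strand with the E2F letters (or their reverse complement) in capitals, because these genes, with at least 5 CPM in T cells, were above the other T cells in cycling clusters in every library and the bases lie in no annotated exon. The Dnmt1 bases overlap annotated exons and Phf19 was under 5 CPM, so theirs are not shown.
Suz12: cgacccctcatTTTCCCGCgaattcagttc
Suv39h1: ggaaggccggcGCGGCAAAcgtgggggccg
Cbx3: tggagccccgcTTTGGCGCgctccgagacg
Uhrf1: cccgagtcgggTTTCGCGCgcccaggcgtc
The Suz12 bases are at chr11:79992876-79992905 on the + strand, outside annotated genes, and the match ends 211 bases before the start. The Suv39h1 bases are at chrX:8074407-8074436 on the - strand, and the match ends 56 bases before the more downstream of its 2 starts, inside the gene (and the antisense gene Gm14820) but in no annotated exon. The Cbx3 bases, at chr6:51470437-51470466 (+), and the Uhrf1 bases, at chr17:56304117-56304146 (+), also lie within their genes and in no exon. A match describes the letters only.

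The question of genotype was whether the regulators differed between WT and KO cells of the same animals. Over all cells, counts summed per library were tested by quasi-likelihood in edgeR, with p-values adjusted by Benjamini-Hochberg. Of 11566 genes, 0.363% were called (33 higher and 9 lower in KO; 1808 had an unadjusted p under 0.05), and 0 of the 8 members. At an unadjusted p under 0.05 there were 3 members, Ezh2, Suv39h1 and Kdm6b, and DESeq2 also called 0, with 0 at an unadjusted p under 0.05. With chimera as a block 9.65% of genes were called, again without a member. The WT and KO values did not overlap for 3 of 8 members, against 44.5% of all genes tested, so the share among the members was no larger than this background.

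Ezh2 was at 49.7 CPM in WT1, 40.7 in KO1, 56.0 in WT2 and 50.0 in KO2. It was lower in KO in both chimeras, but KO2 was as high as WT1, so the genotypes overlapped. The log2 fold change was -0.24 (SE 0.10, edgeR adjusted p = 0.313), and the adjusted p was 0.0711 with the chimera block. The share of cycling cells was also lower in KO, at 10.3% ± 0.73 against 15.1% ± 3.06 (SD, n = 2). Among T cells outside cycling clusters, where 0.205% of genes and 0 of 8 members were called, the Ezh2 fold change was -0.11 (SE 0.10), and within cycling clusters -0.06 (SE 0.17). The part of the cycling share in the difference was not tested.

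Suv39h1 was at 13.8 CPM in WT1, 10.4 in KO1, 15.9 in WT2 and 12.8 in KO2. Both KO libraries lay below both WT libraries. The log2 fold change was -0.37 (SE 0.14, edgeR adjusted p = 0.283). Unlike that of Ezh2, its value outside cycling clusters was as large (-0.37, SE 0.15, adjusted p = 0.388), where the levels were 9.09 CPM in WT1, 7.43 in KO1, 10.2 in WT2 and 7.62 in KO2. The 2 genotypes did not overlap there either.

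Kdm6b was at 6.98 CPM in WT1, 8.30 in KO1, 4.94 in WT2 and 9.85 in KO2. The KO libraries lay above the WT libraries, and the gap was wider in chimera 2 (log2 ratio 0.99) than in chimera 1 (0.25). The log2 fold change was 0.58 (SE 0.20, edgeR adjusted p = 0.256), and 0.0575 was the adjusted p with the chimera block. Leaving out 1 library gave 0.32 (without WT2) to 0.88 (without WT1). Kdm6b was higher in myeloid-like clusters, at 14.8 CPM in WT1, 28.9 in KO1, 10.5 in WT2 and 36.5 in KO2, and these clusters held 2.39%, 4.14%, 1.80% and 3.31% of cells. All 9 myeloid markers were detected over all cells, with summed levels of 2812, 3759, 2676 and 3973 CPM, S100a8 being the most abundant (747, 1328, 512 and 1455 CPM). With T cell clusters only (0.225% of genes called, 0 of 8 members), the Kdm6b fold change was 0.50 (SE 0.22, edgeR adjusted p = 0.377). In T cell clusters the levels were 6.33, 7.27, 4.46 and 8.18 CPM in the same order, and the genotypes still did not overlap.

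Tet2 was at 9.56 CPM in WT1, 11.6 in KO1, 9.83 in WT2 and 11.99 in KO2. Both KO libraries were above both WT libraries, and each chimera gave the same log2 ratio of 0.28. The edgeR fold change was 0.27 (SE 0.13, adjusted p = 0.383), and 0.25 with T cell clusters only. Eed (-0.16, SE 0.11), Tet3 (0.05, SE 0.15), Suz12 (0.08, SE 0.13) and Dnmt3a (0.01, SE 0.13) had overlapping genotypes. The median fold change of the 8 members was 0.03 and that of all genes tested 0.01.

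**Figure D3:**
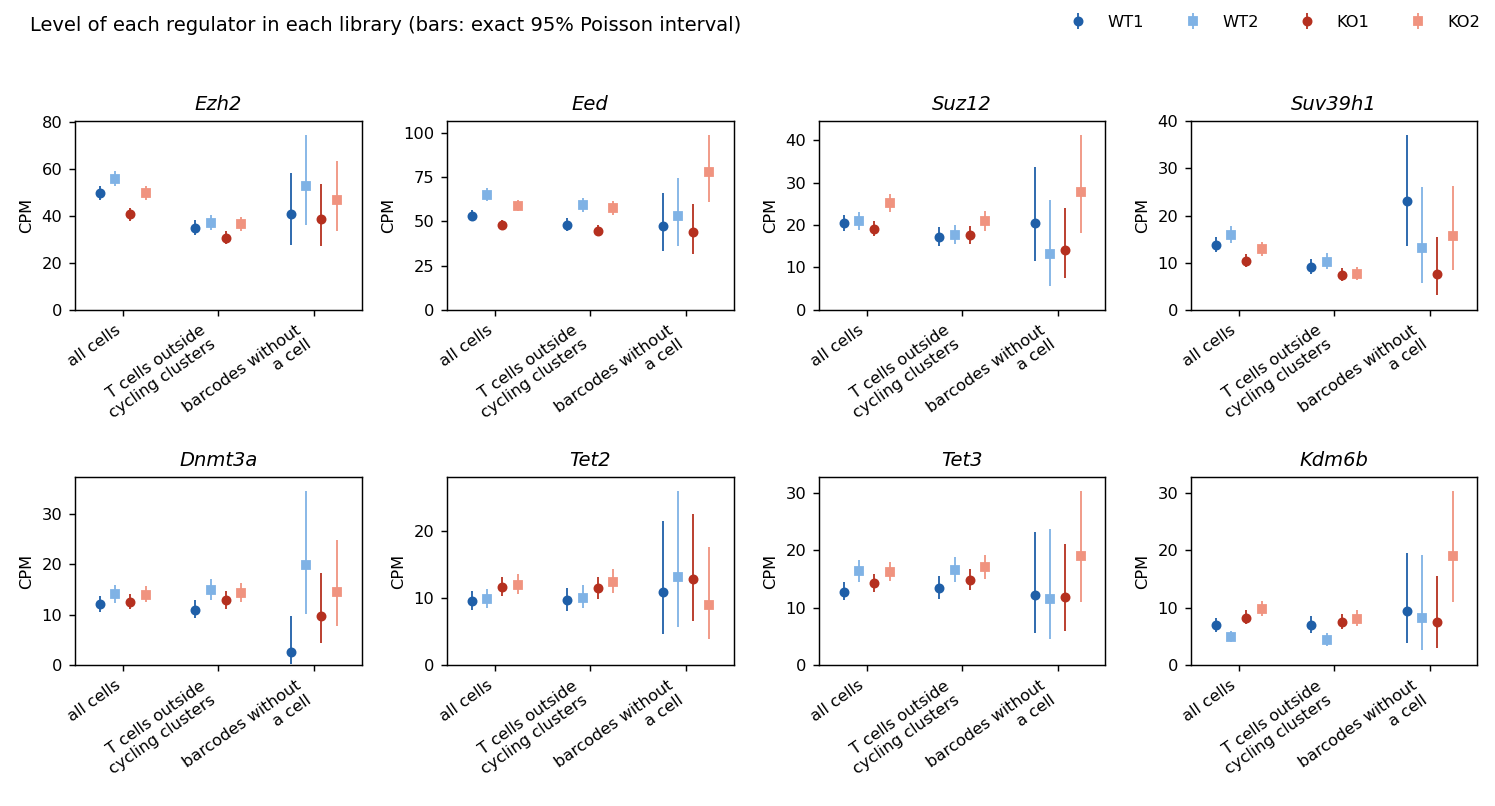
Level (CPM, linear axis from 0) of each regulator per library in all cells, in T cells outside cycling clusters and in barcodes of at most 20 UMIs, which hold no cell; bars are exact 95% Poisson intervals. Suv39h1 is lower and Tet2 and Kdm6b are higher in both KO libraries over all cells, and the barcodes without a cell have wide intervals, since they hold at most 70 UMIs of a regulator per library.

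Free RNA was read from barcodes with few UMIs. In barcodes with 1 to 20 UMIs, Ezh2 was at 40.8 CPM in WT1, 38.7 in KO1, 52.8 in WT2 and 46.9 in KO2. These levels rest on 30 to 42 UMIs per library. They lay below those of cycling cells and above those of terminal effector-like cells in each library. Kdm6b was there at 9.53 CPM in WT1, 7.53 in KO1, 8.25 in WT2 and 18.98 in KO2, from 5 to 17 UMIs, which is above its MPEC-gene level in WT1 (8.68 CPM) and KO2 (15.5 CPM) and below it in WT2 (13.4 CPM). Dnmt3a was at 2.72, 9.68, 19.8 and 14.5 CPM and Tet3 at 12.2, 11.8, 11.55 and 18.98 CPM, both below their MPEC-gene levels in the 3 libraries with such clusters. Kdm6b in these barcodes also lay above its level in T cell clusters in each library. It was lower there in KO1 than in WT1 and higher in KO2 than in WT2. The part of free RNA in the MPEC-gene levels and in the genotype difference of Kdm6b was not tested.

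Within states, 0 members were called by genotype in any test. In cycling clusters 0.281% of 9249 genes were called (779 at an unadjusted p under 0.05; 0.309% with DESeq2) and the smallest adjusted p of a member was 0.667. Kdm6b had the largest member value there (0.60, SE 0.33, and 0.34 without KO2) and Ezh2 -0.06 (SE 0.17). In terminal effector-like clusters 1.45% of genes were called, and Suz12 (0.31, SE 0.27), Tet2 (0.35, SE 0.34) and Dnmt3a (0.48, SE 0.37) had fold changes about as large as their errors. Dnmt3a in these clusters was at 5.61 CPM in WT1, 16.1 in KO1, 13.02 in WT2 and 11.3 in KO2. WT1 was the lowest, and the chimeras went in opposite directions. The Dnmt3a fold change was 0.089 without WT1 and 1.22 without WT2, and that of Suz12 was 0.073 without WT2 and 0.52 without WT1. Kdm6b was at 4.20 CPM in WT1, 7.32 in KO1, 5.73 in WT2 and 7.75 in KO2 in these clusters, from 6 to 25 UMIs. Its log2 fold change was 0.40 to 0.76 with 1 library left out, but its direction turned with integrated clusters.

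In unnamed T cells 0.174% of genes were called, and Suv39h1 gave -0.47 (SE 0.18, edgeR adjusted p = 0.418). Its levels were 9.45 CPM in WT1, 6.85 in KO1, 9.30 in WT2 and 6.90 in KO2. In interferon-like clusters (0.281% of genes called) the 7 members tested lay between -0.13 and 0.34. MPEC-gene clusters of libraries clustered alone left KO2 as the only KO library (1.31% of genes and 0 of 8 members called), so genotype is not read from them. With integrated clusters, which give 2 libraries per genotype, 0.567% of 6879 genes and 0 of 7 members were called. Ezh2 was at 53.6 CPM in WT1, 28.3 in KO1, 54.0 in WT2 and 40.2 in KO2 there (log2 fold change -0.65, SE 0.23, edgeR adjusted p = 0.412, and 0.193 with the block), and Tet3 gave 0.51 (SE 0.33). In the same cells Cd4 was at 15.4 CPM in WT1, 23.3 in KO1, 24.6 in WT2 and 17.2 in KO2, above its level over all cells, beside Cd8a at 536, 452, 524 and 444 CPM. All 5 markers of CD4 T cells were detected, with summed levels of 133, 89.0, 153 and 114 CPM, Tnfrsf4 being the most abundant (78.1, 50.6, 109 and 60.9 CPM). Their part in the Ezh2 difference was not tested. Of the members in libraries clustered alone, 1 (Suv39h1 in unnamed T cells) had an unadjusted p under 0.05 by edgeR, and with integrated clusters there were Ezh2 in MPEC-gene, Kdm6b in cycling (0.85, SE 0.37) and Suv39h1 in unnamed cells (-0.46, SE 0.17). In libraries clustered alone DESeq2 called 0 in each, with 0 at an unadjusted p under 0.05.

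**Figure D4:**
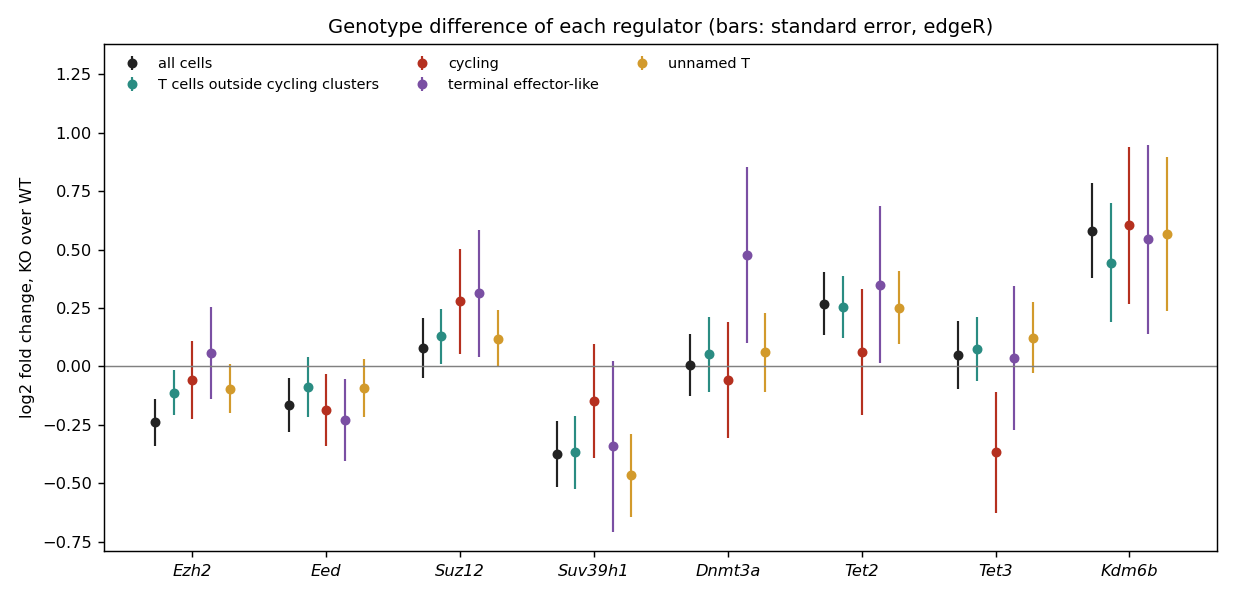
log2 fold change of KO over WT for each regulator over all cells, in T cells outside cycling clusters and in 3 groups of clusters; points are edgeR estimates and bars standard errors (2 libraries per genotype). No value passed an adjusted p of 0.05. Suv39h1 is below 0 and Kdm6b above 0 in all 5 groups of cells shown, but leaving out 1 library turned Suv39h1 to 0.16 in cycling and 0.17 in terminal effector-like clusters, and Kdm6b was at -0.063 in terminal effector-like cells of integrated clusters. The groups overlap, since all cells include the rest and T cells outside cycling clusters include the terminal effector-like and unnamed ones. Interferon-like clusters are not shown. There Suv39h1 was higher in KO in both chimeras (log2 ratio 0.077 and 0.30). Kdm6b went opposite ways there (-0.15 and 2.63, from 0 to 8 UMIs).

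Among all 61 regulators, 60 were tested over all cells and 0 were called by edgeR (14 had an unadjusted p under 0.05), with a median log2 fold change of 0.02. With chimera as a block 6 were called (5 higher and 1 lower in KO), a share of 60 near the 9.65% of all genes, and DESeq2 called 1. Within states, 1 of 53 listed regulators was called in terminal effector-like clusters, higher in KO (1.45% of all genes called), and 0 of 57 in cycling clusters. With the block 2 were called in cycling clusters, both higher in KO (3.15% of all genes called). Pcgf2, a PRC1 ring finger protein, had 1.83, 3.85, 1.46 and 3.86 CPM, and a fold change of 1.21 (edgeR adjusted p = 0.120, and 0.00755 with the block).

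Phf1 gave 0.38 (edgeR adjusted p = 0.216, and 0.0435 with the block), Bap1, the catalytic H2A deubiquitinase, 0.34 (0.245), Cbx8 0.48 (0.249) and Rbbp7 -0.25 (0.285, and 0.0389 with the block). Each of these 5 regulators ran the same way in both chimeras. By list, 4 of 11 PRC2 genes tested, 13 of 20 PRC1, 2 of 3 H2A deubiquitinase, 2 of 2 H3K27 demethylase, 4 of 9 DNA methylation, 3 of 5 DNA demethylation and 5 of 10 H3K9 genes had a fold change above 0, and their medians were -0.14, 0.08, 0.21, 0.33, -0.05, 0.00 and 0.01. The median over all genes tested was 0.01, and the lists were not tested against it.

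Memory genes of the kind that PRC2 and Dnmt3a are known to silence in effector cells were compared on the same counts. Of 14 such genes, 0 were called over all cells by edgeR (4 at an unadjusted p under 0.05, and 1 with DESeq2), and their median log2 fold change was 0.06. With the chimera block, which called 9.65% of all genes, 6 were called, of which 3 were lower and 3 higher in KO. Of the 11 that were tested in terminal effector-like clusters 2 were called, both lower in KO, where 1.45% of all genes were called. With the block 3 of the 11 were called in these clusters, all lower in KO, beside 3.55% of all genes. Cxcr3, a chemokine receptor of memory cells, was at 301 CPM in WT1, 137 in KO1, 331 in WT2 and 143 in KO2 (log2 fold change -1.20, SE 0.13, edgeR adjusted p = 0.000277). Bcl2, which protects memory precursors from death, was at 218, 114, 186 and 138 CPM (log2 fold change -0.71, SE 0.14, edgeR adjusted p = 0.0234, and 0.146 with DESeq2). In both cases the KO libraries lay below both WT libraries. The markers of the state also differed in these clusters, all 6 being detected, with summed levels of 5091 CPM in WT1, 8818 in KO1, 7115 in WT2 and 9794 in KO2, of which Gzma made 4111, 7290, 6054 and 8271 CPM. Bcl2 is itself one of the memory precursor markers used to name clusters. The part of the state markers in the differences of Cxcr3 and Bcl2 was not tested. With the block over all cells, Cxcr3 (log2 fold change -0.45, edgeR adjusted p = 0.000866) and Slamf6, a receptor found on memory precursors (-0.28, 0.0225), were called lower in KO, with adjusted p of 0.143 and 0.201 without it. S1pr1, a receptor for exit from lymphoid organs (log2 fold change 0.30, edgeR adjusted p = 0.0142), Klf2, a transcription factor that drives S1pr1 (0.27, 0.0426), and Eomes, a T-box transcription factor (0.48, 0.0145), were called higher in KO. Without the block their adjusted p was 0.218, 0.347 and 0.434. Each was higher in KO in both chimeras, S1pr1 at 100.3 CPM in WT1, 126 in KO1, 114 in WT2 and 140 in KO2. Over all cells Ccr7, which guides cells to lymph nodes, was at 10.6 CPM in WT1, 5.78 in KO1, 14.6 in WT2 and 8.78 in KO2, lower in KO in both chimeras (log2 fold change -0.81, edgeR adjusted p = 0.168, and 0.00541 with the block).

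Genes induced by handling were looked at beside these. Of 12 immediate early genes, 9 were tested and Jun was called lower in KO (log2 fold change -1.32, edgeR adjusted p = 0.0158), at 32.2 CPM in WT1, 14.6 in KO1, 40.3 in WT2 and 14.8 in KO2. Of all 11566 genes tested 0.363% were called. The genotypes did not overlap for Jun, as for 44.5% of all genes tested. The 3 with the highest levels, Ier2, Btg2 and Junb, gave -0.09, 0.10 and 0.24 on the log2 scale and were not called. With the chimera block Zfp36 (0.97, edgeR adjusted p = 0.00236) and Dusp1 (0.72, 0.0452) were called higher in KO (adjusted p = 0.134 and 0.306 without it), and both were named after their values were seen. With this block 9.65% of all genes were called. In T cell clusters only, with the block, Zfp36 gave 0.91 (edgeR adjusted p = 0.00291) and Dusp1 0.14 (0.773). Zfp36 was at 20.3 CPM in WT1, 28.5 in KO1, 12.9 in WT2 and 36.7 in KO2, and Dusp1 at 5.74, 6.56, 6.24 and 14.5 CPM, so that for both, as for Kdm6b, the gap was wider in chimera 2. The part of handling in the differences of the regulators was not tested.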

How the data were processed

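The authors prepared 10x Genomics 3′ libraries (version 2 kit) and, per the labels, processed them with bcl2fastq 2.17 and Cell Ranger 2.2.0 on mm10. The deposited files hold raw UMI counts for each barcode and gene, barcodes without a cell included. Cells needed 500 genes and no more than 10% of UMIs from mitochondrial genes, and genes seen in a single cell were dropped. No doublet caller was run. Each library was clustered with Seurat 5.3.0 in R 4.3.3 (2000 variable genes without the 61 regulators, 15 components, resolution 0.8). A cluster took a name when at least 3 markers were 2-fold above the other cells and found in 10% of its cells, with at least 1 among its 10 leading genes. Clusters that held less than 1% of a library were not given a state. The S-like cluster of KO1 was led by the basophil gene Prss34.

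Sums per library were tested by quasi-likelihood in edgeR 4.0.16 (TMM scaling, filterByExpr, Benjamini-Hochberg at 0.05). Alternatives were DESeq2 1.42.0, a chimera block, other filters, scalings and clusterings, and leaving out each library. The WT and KO libraries of a number came from the same animal, which pairs them. Differences between the chimeras in WT cells and in KO cells had a Pearson correlation of 0.291 over 6863 genes. State ratios had 0.5 UMIs added. On simulated data edgeR recovered 73.5% of 200 genes changed 2-fold over all cells and 60% in cycling clusters, and 23% and 1.5% of genes changed 1.5-fold. At 2-fold, 21 unchanged genes were also called over all cells and 7 in cycling clusters, and with the chimera block 53 and 27. The simulated counts held no difference between chimeras, so they cannot show how the block performs where libraries of a chimera deviate together. Coordinates are from GENCODE, in which 353 identifiers were not found, and windows before starts from RefSeq. Counted antisense genes overlap Ezh2, Suz12, Suv39h1, Dnmt3a, Tet2 and Kdm6b, and the sources used here do not state whether counting used strand.

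The members, lists and tests were chosen with earlier results of these data known. The genes named are the 8 members, the 3 other regulators of at least 20 CPM with the highest and the 3 with the lowest cycling ratio, the 6 with the lowest p by genotype, memory genes called by genotype, 3 immediate early genes by level and the 3 genes most like each member. Some genes that this rule names are not reported here.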

Additional observations from a re-analysis of the deposited data

Results flagged for a closer look

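Tet3 stood out because its genotype difference had opposite directions in 2 states. In cycling clusters it was lower in KO in both chimeras (mean log2 ratio of KO over WT -0.34), and in unnamed T cells it was higher in both (0.15), so that the states differed by -0.49. The difference was not tested. With 1 library left out, the edgeR log2 fold change of Tet3 ran from -0.60 to -0.15 in cycling clusters. In unnamed clusters it ran from -0.0030 to 0.25, so the direction there did not always hold. KO1 had no MPEC-gene cluster, and its cluster led by Tcf7, Tnfrsf4 and Il7r (886 cells) was among the unnamed ones, so that unlike sets of cells may be compared in chimera 1. Groups of 2 libraries are too small to look for single libraries that stand apart.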

How the results depend on the processing

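With the chimera as replicate block, 556 genes were called higher and 560 lower in KO over all cells, against 33 and 9 without it, and 6 listed regulators and 6 memory genes, against 0 and 0. The block changed the call of no member. DESeq2 gave 126 and 69 genes, 1 regulator and 1 memory gene, scaling by total UMIs 66 and 14 genes, and T cell clusters only 20 and 5 genes, or 499 and 523 with the block, which also gave 5 regulators and 7 memory genes. Leaving out 1 library gave 18 (without WT2) to 163 (without WT1) genes higher, 16 (without KO2) to 65 (without WT1) lower, and 0 to 1 regulators. A library left alone in its group was assumed to vary like the others.

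Over all cells Dnmt3a turned to -0.0070 with DESeq2, and leaving out 1 library gave -0.075 to 0.081 for Dnmt3a, -0.077 to 0.22 for Suz12 and -0.092 to 0.20 for Tet3. With integrated clusters the fold change (log2, without and then with the replicate block) was 0.028 and 0.030 for Ezh2 and 0.032 and 0.040 for Dnmt3a in cycling clusters, and -0.043 and -0.040 for Ezh2 and -0.063 and -0.056 for Kdm6b in terminal effector-like clusters. Leaving out 1 library in cycling clusters gave -0.28 to 0.17 for Ezh2, -0.37 to 0.0031 for Eed, -0.11 to 0.58 for Suz12, -0.44 to 0.16 for Suv39h1 and -0.22 to 0.14 for Dnmt3a. In terminal effector-like clusters it gave -0.11 to 0.30 for Ezh2, -0.64 to 0.17 for Suv39h1 and -0.16 to 0.21 for Tet3, and in unnamed clusters -0.24 to 0.037 for Eed, -0.079 to 0.20 for Dnmt3a and -0.0030 to 0.25 for Tet3.

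The cycling ratios with integrated clusters were 2.05 for Ezh2 and 1.24 for Suz12, and with thinned cells 1.54 for Ezh2, 0.39 for Eed, 1.55 for Suv39h1, -0.56 for Tet2, -0.75 for Tet3 and -0.97 for Kdm6b. In MPEC-gene clusters Ezh2 gave -0.14 at resolution 1.2, -0.23 integrated and 0.71 thinned, Dnmt3a 0.59 integrated, and thinned cells gave 0.090 for Eed, 0.42 for Suz12, -0.85 for Suv39h1 and 1.56 for Tet3. In terminal effector-like clusters Eed gave 0.017 and Kdm6b 0.40 integrated, and Tet2 -0.35 thinned. The causes were not tested. The fits by genotype with integrated clusters, and those with T cell clusters and the block, were chosen after seeing the data. At n = 2 per genotype, most genes changed 1.5-fold in simulated data were not called by edgeR.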
